A study of Mus musculus with 10 samples.

Results

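Resident cardiac macrophage markers were followed in RNA of cardiomyocytes isolated on day 4 after myocardial infarction (MI) in mice. The 9 genes are Lyve1, Timd4, Folr2, Cd163, Mrc1, Cx3cr1, F13a1, Cbr2 and Gas6, taken as the identifiers of the count table that carry these symbols in GENCODE M21, and each symbol matched 1 of the 51789 identifiers. All 9 passed the filter on low counts, as did 15232 genes in all. The paper describes adult mice of both sexes for its MI study, while the labels of these libraries give no sex. MI was a permanent occlusion of the left coronary artery. NLC-MI mice (n = 5) were non-transgenic littermate controls, and TgGRK5-MI mice (n = 5) carried a GRK5 transgene restricted to cardiomyocytes, so both groups were infarcted and differed in the transgene, and no sham hearts were analysed here. The comparison asked whether RNA of these markers in the preparation differed with an excess of GRK5 in the cardiomyocytes. Each library came from 1 mouse, and p-values measure the spread between these mice.

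Resident macrophages of the heart are in part seeded before birth and renew themselves locally, whereas monocytes from the blood enter the infarct and become macrophages there. Resident cells are known for taking up dead cells and debris, and they carry receptors for this work, among them scavenger, mannose and phosphatidylserine receptors. They lie close to cardiomyocytes, and a preparation of isolated cardiomyocytes can hold some of them. The libraries were cardiomyocyte RNA with RNA of other cells in it. The 8 cardiomyocyte markers summed to between 50342 and 131116 CPM (counts relative to the library's size, with edgeR's TMM factors) across the libraries, a list of 20 pan-macrophage genes summed to between 1084 and 3821 CPM, and the 9 resident markers summed to between 253 and 424 CPM. In RNA of bulk samples, fewer cells of a type and less RNA per cell cannot be told apart. The markers are also not restricted to macrophages: Lyve1 is made by lymphatic endothelium, F13a1 by platelet precursors, and Gas6 by many cells. Nor are they all restricted to resident cells. With flow cytometry on day 4 after MI, the paper counted neutrophils, monocytes and macrophages that carry CD206, the protein of Mrc1. Mrc1 RNA therefore cannot be assigned to resident cells alone.

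Libraries held 7968779 to 23381527 counts, and 3 of the 10 (NLC-MI replicate 3 and TgGRK5-MI replicates 3 and 4) held under 15000000. A gene with 3 counts lay between 0.121 and 0.392 CPM. Grk5, the gene of the transgene's protein, had 60.3 ± 9.49 CPM in NLC-MI against 1221 ± 472 CPM in TgGRK5-MI (SD over 5 libraries each, edgeR adjusted p = 0.000246). Across all genes tested, 12 genes (0.0788%) had an edgeR adjusted p under 0.10.

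None of the 9 markers passed an adjusted p under 0.10 in edgeR's quasi-likelihood test (0 of 9, against 0.0788% of all genes tested, 0.0525% higher and 0.0263% lower), and DESeq2's Wald test called 1 of 9, Lyve1, where it called 0.397% of all genes. At an unadjusted p under 0.05, 3 of 9 markers were higher in TgGRK5-MI (Lyve1, Folr2 and Cbr2) and 0 were lower, where 3.85% of all genes tested were past this value, 1.77% higher and 2.08% lower. The log2 fold change lay above 0 for 8 of 9 markers, with Gas6 the exception, and for 50.2% of all genes. Among related lists read below, it also lay above 0 for 18 of 20 pan-macrophage genes and 12 of 16 other resident macrophage genes. For recruited monocyte and infarct macrophage genes it was 10 of 12, and for efferocytosis and TAM signaling genes 9 of 18. The median log2 fold change was 0.39 over the markers and 0.00 over all genes tested. The groups did not overlap for 1 of 9 markers, Lyve1, and for 0.578% of all genes in the same direction. At an unadjusted edgeR p under 0.05, the markers that lay higher were an uptake receptor of hyaluronan, a folate receptor and a reductase. The mannose receptor Mrc1, the hemoglobin receptor Cd163 and the fractalkine receptor Cx3cr1 gave intervals that include 0. The markers were chosen with earlier results of these data known, and they are not independent of each other. Their counts beside the shares of all genes are therefore a description.

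**Figure D1:**
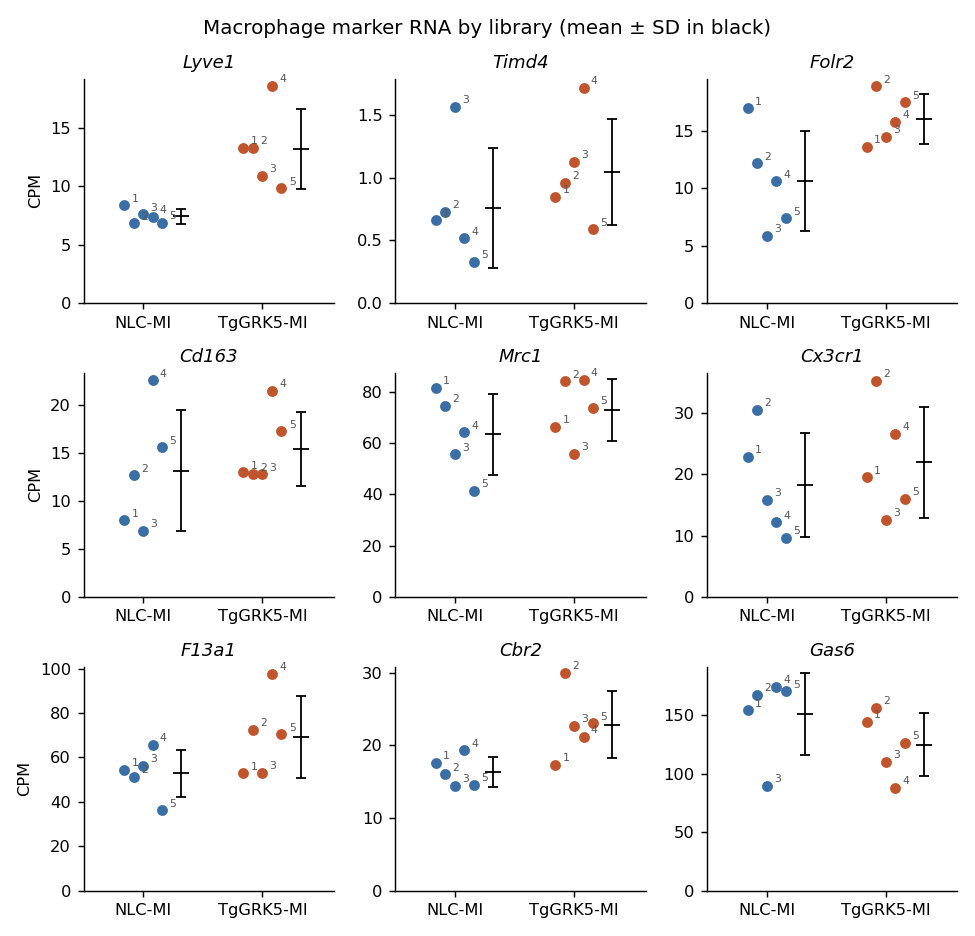
CPM of each of the 9 markers (vertical axes from 0) in the 5 NLC-MI and 5 TgGRK5-MI libraries, numbered by replicate, with the group mean ± SD in black. The Lyve1 groups do not overlap (highest NLC-MI library 8.36 CPM, lowest TgGRK5-MI library 9.81 CPM), and every other marker overlaps.

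Promoters are shown for Folr2 and Cbr2, which lay higher in TgGRK5-MI at an unadjusted p under 0.05 and have an entry in the RefSeq promoter table (GRCm38.p6). 8 of the 9 markers matched that table, and Lyve1 did not. The 250 bases before the start that RefSeq gives are printed on the strand of the gene, 5′ to 3′, at chr7:101857191-101857440 (minus strand) for Folr2 and at chr11:120732022-120732271 (minus strand) for Cbr2. Capitals mark matches to AGGAAGT or GAGGAA, core forms of the site of the macrophage factor PU.1, and to TGCTGA, a part of the site of MAF factors, on either strand.
Folr2: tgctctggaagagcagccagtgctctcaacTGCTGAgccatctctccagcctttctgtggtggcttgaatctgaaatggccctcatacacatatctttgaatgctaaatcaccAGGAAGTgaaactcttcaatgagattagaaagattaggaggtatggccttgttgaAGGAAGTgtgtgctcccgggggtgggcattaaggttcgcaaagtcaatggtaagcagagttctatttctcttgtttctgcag
Cbr2: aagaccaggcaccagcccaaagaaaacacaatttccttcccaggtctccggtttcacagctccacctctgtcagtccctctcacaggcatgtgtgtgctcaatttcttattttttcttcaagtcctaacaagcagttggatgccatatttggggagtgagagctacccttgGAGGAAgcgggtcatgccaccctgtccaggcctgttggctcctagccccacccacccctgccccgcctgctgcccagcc
The Folr2 stretch held AGGAAGT at 2 places and TGCTGA at 1, and the Cbr2 stretch held GAGGAA at 1. The GENCODE span of either gene begins a little upstream of the RefSeq start, so the last bases of each stretch lie within it, and the Cbr2 match lies in these bases. In the whole windows, which run from 250 bases before to 50 after the start, AGGAAGT was found in 2 of 8 markers (Folr2 and Mrc1) and in 9.35% of all 32817 windows. GAGGAA was found in 3 of 8 (Mrc1, F13a1 and Cbr2) and in 28.3% of all windows, and TGCTGA in 3 of 8 (Timd4, Folr2 and Cbr2) and in 19.5%. TGACTCA, the AP-1 site, was found in 0 of 8 and in 5.20% of all windows. AGGAAGT and GAGGAA can overlap each other. These are matches of letters and not measured sites.

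The uptake receptors come first. Lyve1 (ENSMUSG00000030787, chromosome 7 from 110850607 to 110863239, minus strand, GRCm38) encodes a hyaluronan receptor of resident macrophages and of lymphatic endothelium. It was at 8.36, 6.83, 7.58, 7.4 and 6.86 CPM in NLC-MI replicates 1 to 5. In TgGRK5-MI replicates 1 to 5 it was at 13.3, 13.3, 10.9, 18.6 and 9.81 CPM. All 5 TgGRK5-MI libraries lay above all 5 NLC-MI libraries, with TgGRK5-MI replicate 4 the highest, and the NLC-MI libraries lay close together. The means were 7.41 ± 0.624 CPM (SD, n = 5) and 13.2 ± 3.38 CPM (SD, n = 5), a 1.78-fold difference. On the log2 scale it was 0.83 (standard error 0.19, 95% confidence interval 0.42 to 1.24), with an edgeR p = 0.000926 (adjusted p = 0.403) and a two-sided exact permutation p = 0.00794, the smallest value that 5 against 5 libraries allow. By edgeR's unadjusted value Lyve1 ranked 35 of 15232 genes. Adjusted p was 0.0195 with DESeq2 and 0.109 with limma-voom, so the call at 0.10 differed between the tools. On a single simulated set, a larger share of DESeq2's calls was false than of those of edgeR or limma-voom. That set was drawn with edgeR's own dispersion estimates, so it cannot rank the tools on these data. The DESeq2 call stands alone among the tools and needs caution. Leaving out single libraries gave log2 fold changes from 0.68 (without TgGRK5-MI replicate 4) to 0.92, with unadjusted edgeR values from 0.00055 to 0.00329.

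Because Lyve1 also marks lymphatic vessels, a list of 7 lymphatic endothelial genes was read beside it. Of these genes 6 passed the filter, 0 had an edgeR p under 0.05 in either direction, 4 of the 6 had a log2 fold change above 0, and the median was 0.07. Their summed level was 94.2 to 173 CPM in NLC-MI and 82.3 to 135 CPM in TgGRK5-MI, and the library with the highest sum was NLC-MI replicate 3. Prox1, the transcription factor that sets lymphatic identity, was at 54.0 ± 31.4 and 41.2 ± 20.1 CPM (SD, n = 5 each), with a log2 fold change of -0.39 (edgeR adjusted p = 1.0). Flt4, the receptor of lymphatic growth factors, was at 32.4 ± 10.1 and 30.5 ± 8.46 CPM (SD, n = 5 each). These are the 2 genes of the list with the highest level, and the only 2 below 0. Above 0, Pdpn had a log2 fold change of 0.48, Reln of 0.18, Ccl21a of 0.08 and Mmrn1 of 0.06. Over all libraries Prox1 averaged 47.6 CPM, against 4.86 CPM for Ccl21a, 2.13 for Mmrn1 and 1.67 for Reln. The sum therefore says little about these low genes, and which cells the Prox1 RNA came from was not tested. None of the 7 genes was at 0 in any library.

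Folr2 (ENSMUSG00000032725, chromosome 7 from 101839988 to 101857194, minus strand), the folate receptor beta of resident macrophages, was at 17.0, 12.2, 5.88, 10.6 and 7.39 CPM in NLC-MI replicates 1 to 5. In TgGRK5-MI replicates 1 to 5 it was at 13.6, 18.9, 14.5, 15.8 and 17.5 CPM. The groups overlapped through NLC-MI replicate 1, and the other 4 NLC-MI libraries lay below every TgGRK5-MI library. The means were 10.6 ± 4.36 and 16.1 ± 2.17 CPM (SD, n = 5 each), and the log2 fold change was 0.59 (standard error 0.26, 95% confidence interval 0.03 to 1.15, edgeR p = 0.0417, adjusted p = 1.0, exact permutation p = 0.0397). This value rests on few libraries. It ranged from 0.44 to 0.81 with each library left out in turn, and p stayed under 0.05 in 3 of these 10 fits, with the highest edgeR p of 0.0994 without NLC-MI replicate 5. With a covariate for Xist against Y-linked genes, added after seeing the data since the labels give no sex, Folr2 was at 0.54 and no longer under 0.05, while F13a1 was at 0.55 and came under it, so the 3 markers under 0.05 were then Lyve1, Cbr2 and F13a1. Folr2 shares 975 exon bases with Gm10602 on the opposite strand, and since the kit named in the labels does not mark strand, reads in these bases cannot be told apart. Gm10602 itself was at 3.07 ± 0.742 and 2.95 ± 0.556 CPM (SD, n = 5 each; log2 fold change -0.05, edgeR adjusted p = 1.0).

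Cd163 (ENSMUSG00000008845, chromosome 6 from 124304656 to 124330527, plus strand) encodes the scavenger receptor that takes up haptoglobin bound to hemoglobin. It was at 8.01, 12.7, 6.92, 22.6 and 15.6 CPM in NLC-MI and at 13, 12.8, 12.8, 21.5 and 17.3 CPM in TgGRK5-MI, replicates 1 to 5 in order. Replicate 4 was the highest of either group, and all TgGRK5-MI libraries lay within the NLC-MI range. The groups had means of 13.2 ± 6.36 and 15.5 ± 3.88 CPM (SD, n = 5 each), and the log2 fold change was 0.22 (standard error 0.31, 95% confidence interval -0.45 to 0.89, edgeR p = 0.48, exact permutation p = 0.349), and it was -0.05 in the 7 deepest libraries. Leaving out single libraries gave 0.07 (without NLC-MI replicate 1 or 3) to 0.51 (without NLC-MI replicate 4).

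Mrc1 (ENSMUSG00000026712, chromosome 2 from 14229392 to 14332057, plus strand), the mannose receptor CD206, was the marker with the most counts of the receptors. It was at 81.7, 74.5, 55.6, 64.2 and 41.4 CPM in NLC-MI and at 66.4, 84.1, 55.9, 84.8 and 73.7 CPM in TgGRK5-MI. The means of 63.5 ± 15.8 and 73.0 ± 12.3 CPM (SD, n = 5 each) differed by less than the spread between mice, with a log2 fold change of 0.20 (standard error 0.19, 95% confidence interval -0.22 to 0.62, edgeR p = 0.319, exact permutation p = 0.294). The log2 fold change was 0.07 without NLC-MI replicate 5, 0.02 with limma-voom and 0.03 with the pan-macrophage covariate.

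Timd4 (ENSMUSG00000055546, chromosome 11 from 46810800 to 46844332, plus strand), a phosphatidylserine receptor for the uptake of dying cells, was the lowest marker, with 5 to 22 counts in a library. It was at 0.660, 0.728, 1.57, 0.516 and 0.327 CPM in NLC-MI and at 0.849, 0.959, 1.13, 1.72 and 0.590 CPM in TgGRK5-MI. The shallow libraries NLC-MI replicate 3 and TgGRK5-MI replicate 4 were the highest of their groups. Its means were 0.759 ± 0.477 and 1.05 ± 0.423 CPM (SD, n = 5 each), with a log2 fold change of 0.52 (standard error 0.41, 95% confidence interval -0.38 to 1.42, edgeR p = 0.23, exact permutation p = 0.246). Leaving out single libraries gave 0.32 (without TgGRK5-MI replicate 4) to 0.81 (without NLC-MI replicate 3).

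Cx3cr1 (ENSMUSG00000052336, chromosome 9 from 119901616 to 120069879, minus strand), the receptor of fractalkine on monocytes and macrophages, was at 22.9, 30.6, 15.9, 12.2 and 9.68 CPM in NLC-MI. In TgGRK5-MI it was at 19.5, 35.3, 12.6, 26.6 and 16 CPM. Replicate 2 was the highest of either group. The means of 18.3 ± 8.49 and 22.0 ± 9.05 CPM (SD, n = 5 each) gave a log2 fold change of 0.26 (standard error 0.34, 95% confidence interval -0.49 to 1.02, edgeR p = 0.457, exact permutation p = 0.46), and its sign turned with limma-voom (-0.15) and with the pan-macrophage level as a covariate (-0.04). Leaving out single libraries gave 0.03 (without TgGRK5-MI replicate 2) to 0.53 (without NLC-MI replicate 2). The gene of its ligand, Cx3cl1, was at 24.5 ± 6.05 and 25.1 ± 4.37 CPM (SD, n = 5 each; log2 fold change 0.04, edgeR adjusted p = 1.0), a gene named after its values were seen.

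Of the enzymes, Cbr2 (ENSMUSG00000025150, chromosome 11 from 120729489 to 120732114, minus strand), a carbonyl reductase, was at 17.6, 16, 14.4, 19.3 and 14.6 CPM in NLC-MI. In TgGRK5-MI it was at 17.3, 30, 22.7, 21.2 and 23 CPM. The groups overlapped through TgGRK5-MI replicate 1, and the other 4 TgGRK5-MI libraries lay above every NLC-MI library. The means were 16.4 ± 2.08 and 22.8 ± 4.58 CPM (SD, n = 5 each), with a log2 fold change of 0.48 (standard error 0.17, 95% confidence interval 0.12 to 0.85, edgeR p = 0.0143, adjusted p = 1.0, exact permutation p = 0.0238). The edgeR p stayed under 0.05 with each library left out in turn (highest p 0.0468, without TgGRK5-MI replicate 2) and was 0.0518 in the 7 deepest libraries.

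F13a1 (ENSMUSG00000039109, chromosome 13 from 36867178 to 37050244, minus strand), the A subunit of the clotting transglutaminase factor XIII, was at 54.5, 51.3, 56.2, 65.8 and 36.2 CPM in NLC-MI and at 52.8, 72.4, 53.0, 97.7 and 70.5 CPM in TgGRK5-MI. TgGRK5-MI replicates 2, 4 and 5 lay above every NLC-MI library, and replicates 1 and 3 within their range. From means of 52.8 ± 10.7 and 69.3 ± 18.4 CPM (SD, n = 5 each), the log2 fold change was 0.39 (standard error 0.20, 95% confidence interval -0.05 to 0.84, edgeR p = 0.0793, exact permutation p = 0.111). It was 0.24 without TgGRK5-MI replicate 4, and an unadjusted edgeR p under 0.05 was reached in 3 of the 10 fits with 1 library left out. Of 5 platelet genes read beside it, 3 passed the filter and 0 had an edgeR p under 0.05, and their summed level was 3.07 to 14.9 CPM in NLC-MI and 3.30 to 6.49 CPM in TgGRK5-MI. The most abundant were Ppbp at 3.68 ± 3.83 and 1.83 ± 1.05 CPM and Itga2b at 1.69 ± 0.370 and 1.75 ± 0.677 CPM (SD, n = 5 each). Gp9 and Treml1, defining genes of platelets, were at 0 in at least 1 library.

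Gas6 (ENSMUSG00000031451, chromosome 8 from 13465374 to 13494490, minus strand), the secreted bridge between phosphatidylserine and the TAM receptors, was the only marker with a log2 fold change below 0. It was at 154, 167, 89.3, 174 and 170 CPM in NLC-MI and at 144, 156, 110, 87.9 and 126 CPM in TgGRK5-MI. NLC-MI replicate 3 was low, and the other 4 NLC-MI libraries lay between 154 and 174 CPM. With means of 151 ± 35.2 and 125 ± 27 CPM (SD, n = 5 each), the log2 fold change was -0.28 (standard error 0.21, 95% confidence interval -0.73 to 0.18, edgeR p = 0.213, exact permutation p = 0.286), and leaving out single libraries gave -0.41 (without NLC-MI replicate 3) to -0.17 (without TgGRK5-MI replicate 4), with an unadjusted edgeR p under 0.05 in 1 of these 10 fits. The genes of its receptors gave Axl at 135 ± 54.0 and 134 ± 51.3 CPM, Mertk at 17.0 ± 4.5 and 18.5 ± 3.74 CPM, and Tyro3 at 8.36 ± 5.44 and 9.08 ± 5.34 CPM (SD, n = 5 each). Their log2 fold changes were -0.01, 0.12 and 0.11, and the receptors were named after their values were seen.

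**Figure D2:**
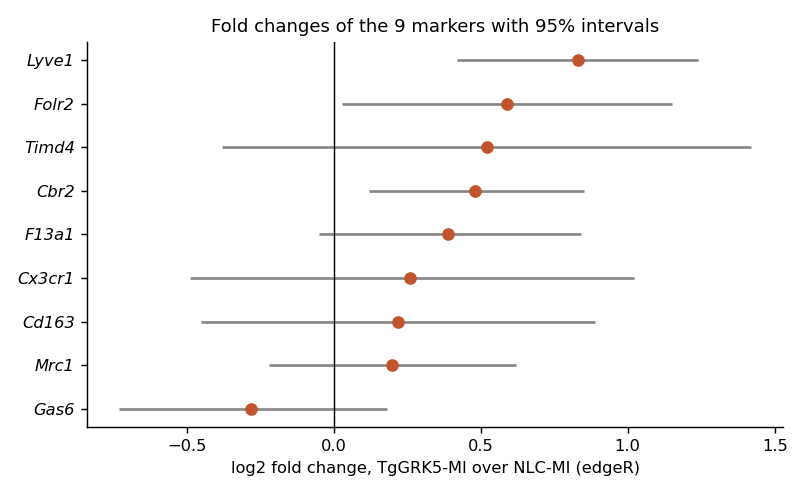
Log2 fold change of each marker, TgGRK5-MI over NLC-MI, from edgeR, with its 95% confidence interval (horizontal axis; the line at 0 is no difference). The intervals of Lyve1, Folr2 and Cbr2 lie above 0, and those of the other 6 markers include 0.

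Per kilobase of exon, the markers covered a wide range of levels. In NLC-MI, Gas6 was at 59.2 ± 13.8 CPM per kilobase (SD, n = 5), followed by Cbr2 at 12.3 ± 1.56, Mrc1 at 9.96 ± 2.49, F13a1 at 7.83 ± 1.59, Folr2 at 6.87 ± 2.82, Cx3cr1 at 4.05 ± 1.88, Lyve1 at 2.54 ± 0.214, Cd163 at 2.41 ± 1.16 and Timd4 at 0.349 ± 0.220. In TgGRK5-MI the same scale gave 48.9 ± 10.6 for Gas6, 17.2 ± 3.45 for Cbr2, 11.5 ± 1.92 for Mrc1, 10.4 ± 1.40 for Folr2, 10.3 ± 2.73 for F13a1, 4.88 ± 2.01 for Cx3cr1, 4.52 ± 1.16 for Lyve1, 2.83 ± 0.71 for Cd163 and 0.483 ± 0.195 for Timd4. Gas6 stood above and Timd4 below the other markers in every library of either group, and most neighbours between them had overlapping ranges. Of the raw counts of the 9 markers pooled over all libraries, 41.1% were on Gas6 and 2.81% on Lyve1.

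The markers did not share 1 order of libraries, but they were not independent of each other. Pearson correlations of log2 CPM between pairs of markers ran from -0.84 (Timd4 and Gas6) to 0.85 (Mrc1 and Cx3cr1). TgGRK5-MI replicate 4 was the highest library for Lyve1, Timd4, Mrc1 and F13a1 and the lowest for Gas6. TgGRK5-MI replicate 2 was the highest for Folr2, Cx3cr1 and Cbr2, and NLC-MI replicate 4 for Cd163 and Gas6. NLC-MI replicate 5 was the lowest for 4 markers and NLC-MI replicate 3 for 3. The highest library was 1.98-fold above the lowest for Gas6, 2.72-fold for Lyve1 and 5.26-fold for Timd4.

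By Pearson correlation of log2 CPM over the 10 libraries among 14121 genes, the genes most like each marker were found, given here as a description without a test. Libraries share depth and the amount of RNA from other cells, and with 10 libraries and this many genes high values occur among unrelated genes. Among the genes most like Lyve1 were Tmem175 (0.89) and the macrophage complement receptor gene Vsig4 (0.88). Folr2 was closest to Clec4d (0.96) and Clec4n (0.95), both C-type lectin receptors of myeloid cells, and Cfap74 (0.95). Mrc1 was closest to Entpd1 (0.99), Heph (0.99) and Ace (0.98), and Cx3cr1 to Anpep (0.99), Tifab (0.98) and Gpc6 (0.97). Cd163 was closest to Hus1 (0.95), Adam22 (0.88) and BC002189 (0.87), F13a1 to Asf1b (0.96), Syce2 (0.96) and Trim37 (0.95), and Timd4 to Tubb4a (0.97), Poli (0.96) and Usp3 (0.96). Cbr2 was closest to Med11 (0.93), Rfc2 (0.87) and Tex264 (0.87). Among the genes most like Gas6 were Dgcr2 (0.98) and Tbc1d9b (0.98). Of the 27 genes found in this way, 3 for each marker, 8 were kept with Spearman's correlation.

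Other genes linked to resident macrophages were read from a list. Of its 18 genes, 16 passed the filter, 1 had an edgeR p under 0.05 (higher) and 0 had an adjusted p under 0.10. Over all genes tested, 1.77% were higher at this unadjusted threshold and 0.0525% at the adjusted one. The log2 fold change lay above 0 for 12 of the 16, with a median of 0.18 against 0.00 over all genes. The 1 gene was Vsig4, the complement receptor of tissue macrophages, at 1.27 to 1.66 CPM in NLC-MI and 1.72 to 4.84 CPM in TgGRK5-MI. Its groups did not overlap, as for 0.578% of all genes in the same direction. Its log2 fold change was 0.83 with a standard error of 0.30 (edgeR adjusted p = 1.0), on 11 to 48 counts in a library. Selenop, a selenium carrier, was at 317 ± 103 and 376 ± 55.7 CPM, and Txnip, the thioredoxin-interacting protein gene that many cells express, was at 486 ± 226 and 465 ± 107 CPM (SD, n = 5 each).

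Macrophage RNA as a whole varied between mice in both groups. None of the 20 pan-macrophage genes had an edgeR p under 0.05, 18 of 20 had a log2 fold change above 0, and their median was 0.23. Their sum ran from 1084 to 3424 CPM in NLC-MI and from 1799 to 3821 CPM in TgGRK5-MI, a 3.53-fold range over the libraries. The sum of the 9 resident markers had a 1.67-fold range. Gas6, which many cells make, held 41.1% of the marker counts. Single markers ranged from 1.98-fold (Gas6) to 5.26-fold (Timd4), so the sum does not show the spread of each marker. Lyz2, the lysozyme of myeloid cells, was at 593 ± 338 and 789 ± 290 CPM (log2 fold change 0.41, edgeR adjusted p = 1.0), and Ctss, cathepsin S, at 177 ± 110 and 223 ± 97.1 CPM (SD, n = 5 each).

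Recruited monocyte and infarct macrophage genes gave 0 of 12 with an edgeR p under 0.05. The log2 fold change lay above 0 for 10 of 12, with a median of 0.19. Their sum was 286 to 1070 CPM in NLC-MI and 347 to 1268 CPM in TgGRK5-MI. Spp1, osteopontin, was at 376 ± 165 and 341 ± 171 CPM, and Gpnmb, a glycoprotein of lipid-laden macrophages, at 98.2 ± 61.9 and 139 ± 72.0 CPM (SD, n = 5 each). Efferocytosis and TAM signaling genes gave 0 of 18 with a median of 0.00, led in level by Cd36, a fatty acid and scavenger receptor, at 1238 ± 410 and 1352 ± 211 CPM, and Calr, calreticulin, at 617 ± 114 and 645 ± 108 CPM (SD, n = 5 each). A list of ligands, growth factors and enzymes linked to the markers or to macrophages gave 0 of 8 with a median of -0.03. Its enzyme genes were Hmox1 and the hyaluronan synthase genes Has1, Has2 and Has3. Hmox1, heme oxygenase, was at 194 ± 79.3 and 238 ± 70.7 CPM and Csf1, the macrophage growth factor, at 80.3 ± 20.3 and 75.3 ± 16.3 CPM (SD, n = 5 each).

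Markers of other cells in the preparation were read for the same groups. Fibroblast genes summed to 4027 to 24063 CPM in NLC-MI and 4192 to 24733 CPM in TgGRK5-MI, a 6.14-fold range, with 0 of 8 at an edgeR p under 0.05 (Col3a1 at 4160 ± 3270 and 3884 ± 2823 CPM and Col1a1 at 3719 ± 2645 and 3360 ± 2082 CPM, SD, n = 5 each). Blood endothelial genes gave 0 of 8, with Fabp4 at 533 ± 183 and 531 ± 211 CPM and Cdh5 at 313 ± 115 and 315 ± 115 CPM (SD, n = 5 each). Neutrophil genes gave 0 of the 6 that passed the filter, with Csf3r at 9.36 ± 3.52 and 10.4 ± 3.11 CPM and Mmp9 at 5.12 ± 2.83 and 5.21 ± 2.12 CPM (SD, n = 5 each), and Ly6g and Retnlg were at 0 in at least 1 library. T, B and NK cell genes were near the floor, and 1 of 8 passed the filter (Cd79a, at 0.442 ± 0.176 and 0.723 ± 0.312 CPM), with Ms4a1 at 0.456 ± 0.141 and 0.441 ± 0.298 CPM (SD, n = 5 each). Mural genes gave 1 of 6 lower at an unadjusted p under 0.05, the pericyte gene Cspg4 (log2 fold change -0.62, edgeR adjusted p = 1.0), with Acta2 at 446 ± 199 and 634 ± 165 CPM and Rgs5 at 436 ± 124 and 441 ± 89.2 CPM (SD, n = 5 each). Cardiomyocyte genes gave 1 of 8, also lower, the calcium release channel gene Ryr2 (log2 fold change -0.93, edgeR adjusted p = 0.968), with Myh6 at 29553 ± 13306 and 21150 ± 6780 CPM and Actc1 at 14668 ± 3768 and 15937 ± 3782 CPM (SD, n = 5 each). Over all genes tested, 2.08% were lower at an unadjusted edgeR p under 0.05, and 3.85% passed it in either direction. The part of these cells in the marker values was not tested.

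**Figure D3:**
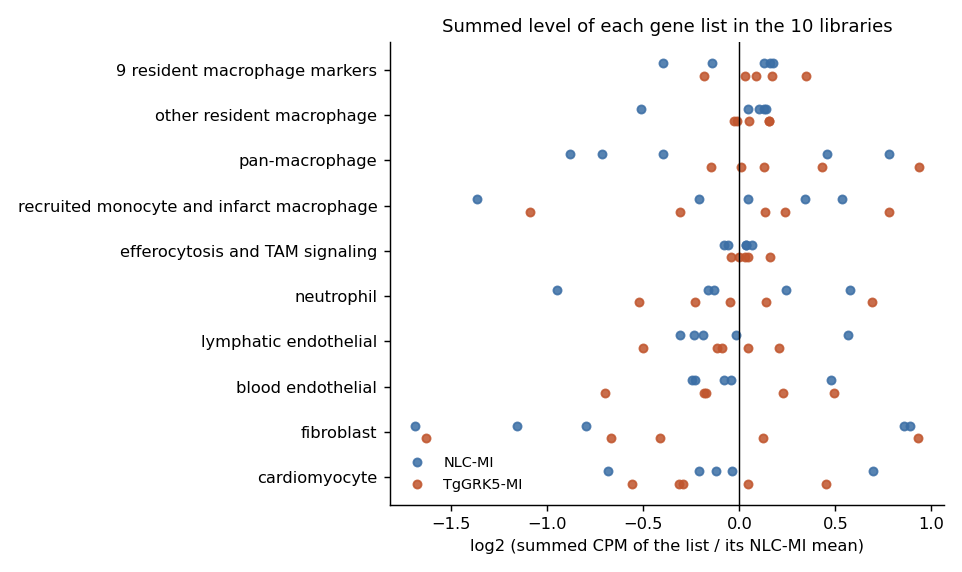
Summed CPM of the gene lists shown, in the 10 libraries, as log2 of the ratio to each list's NLC-MI mean (horizontal axis). NLC-MI is in blue and TgGRK5-MI in orange. The ligand, mural, platelet, and T, B and NK cell lists are not shown. The groups overlap for every list shown, and the fibroblast sum spreads most over the libraries (6.14-fold).

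To read each marker against macrophage RNA of the same library, its counts were set over the summed counts of the 20 pan-macrophage genes. On this scale all 9 markers overlapped between the groups and 0 of 9 had an exact permutation p under 0.05. Lyve1 was at 2.44, 2.49, 6.23, 4.89 and 6.33 per 1000 pan-macrophage counts in NLC-MI and at 6.64, 3.48, 6.08, 8.52 and 3.65 in TgGRK5-MI. The NLC-MI libraries that lay close together in CPM were spread out here, with replicates 1 and 2 low. The log2 difference of Lyve1 was 0.38 (exact permutation p = 0.341), against 0.83 in CPM. It was 0.19 without NLC-MI replicate 1, 0.20 without NLC-MI replicate 2 and 0.21 without TgGRK5-MI replicate 4, and it reached 0.53 in other fits with 1 library less. With the pan-macrophage level as a covariate in edgeR, an alternative chosen after seeing the data, it was 0.81 (edgeR adjusted p = 0.284), so the size of the Lyve1 difference depended on how macrophage RNA was taken into account. With this covariate Folr2 was at 0.39 (edgeR adjusted p = 0.492) and Cbr2 at 0.38 (edgeR adjusted p = 0.498), both still under 0.05 before adjustment.

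Folr2 was at 5.61 ± 1.19 and 6.70 ± 1.15 per 1000 pan-macrophage counts (SD, n = 5 each; log2 difference 0.26, exact permutation p = 0.19) and varied least, 1.80-fold over the libraries. Cbr2, at 9.79 ± 3.98 and 9.47 ± 1.89, differed by 0.05 on the log2 scale (exact permutation p = 0.873). Mrc1 was at 35.5 ± 9.54 and 30.5 ± 6.30, Cx3cr1 at 9.59 ± 2.55 and 8.81 ± 2.44, and F13a1 at 31.5 ± 13.9 and 29.1 ± 9.55, with log2 differences of -0.20, -0.13 and -0.04. Cd163 was at 8.40 ± 5.86 and 6.64 ± 2.32 and Timd4 at 0.478 ± 0.457 and 0.462 ± 0.244, the widest ranges over the libraries (6.39-fold and 6.69-fold). Gas6 was at 90.2 ± 45.4 and 52.1 ± 13.8 with a log2 difference of -0.69 (exact permutation p = 0.111), which reached -0.90 (exact permutation p = 0.0476) without NLC-MI replicate 1.

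**Figure D4:**
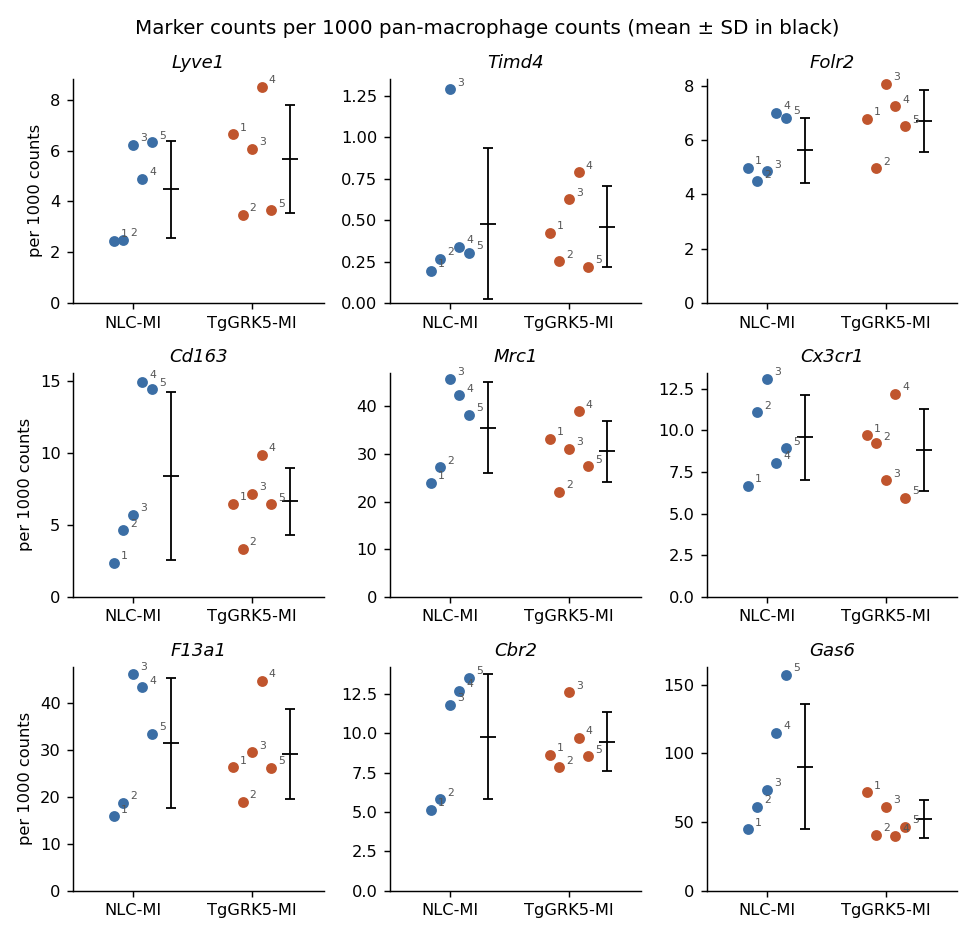
Counts of each marker per 1000 summed counts of the 20 pan-macrophage genes (vertical axes from 0) in each library, numbered by replicate, with the group mean ± SD in black. All 9 markers overlap between the groups, and Lyve1 runs from 2.44 to 6.33 in NLC-MI and from 3.48 to 8.52 in TgGRK5-MI.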

How the data were processed

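RNA was measured in 10 libraries of isolated cardiomyocytes, grouped by the labels. The authors deposited whole-number counts per Ensembl gene, not normalized, and the submitters' notes name Bowtie2, RSEM 1.2.31, DESeq2 and mm10 without roles, so the counts may be rounded estimates. The annotation and strand setting are not given in the sources used here. Symbols and positions came from GENCODE M21 (51596 identifiers matched). In R 4.3.3, edgeR 4.0.16 (TMM, filterByExpr, quasi-likelihood F test, Benjamini-Hochberg adjustment over 15232 genes) gave the tests on all genes. Single markers were also tested by two-sided exact permutation over all 252 placements of log2 CPM (prior count 2), unadjusted. The transcripts of the markers were compared with blastn 2.17.0 at 95% identity or more. The tests were checked on a single simulated set drawn with edgeR's dispersion estimates. In it, a larger share of the calls was false with DESeq2 than with edgeR or limma-voom. This does not rank the tools on the real data. The markers and the hand-written lists were chosen with earlier results of these data known. Named are all 9 markers, per list the genes with an unadjusted p under 0.05 and the 2 with the highest mean CPM, the 3 genes most like each marker, and Grk5. Some items are not reported here. Alternatives were RLE factors, library size alone, other filters, DESeq2 1.42.0, limma-voom (limma 3.58.1), the replicate block and each library left out, and, added after seeing the data, covariates for the pan-macrophage level or for Xist against Y-linked genes, and the 7 deepest libraries. Floors of 3 counts cover counting error only, while the intervals of fold changes come from the edgeR fit and include the spread between mice.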

Additional observations from a re-analysis of the deposited data

Results flagged for a closer look

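Gas6 in NLC-MI replicate 3 stood apart from its group, at 89.3 CPM, while the other 4 NLC-MI libraries lay between 154 and 174 CPM. The gap was 0.814 of the range of log2 CPM in that group. In all, 36 groups of values were checked in this way, and chance sets apart about 1 group in 20. This library held the fewest counts of the 10 (7968779).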

How the results depend on the processing

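Of 179 refitted log2 fold changes of the markers, 175 kept their direction and side of the adjusted threshold. Lyve1 passed it with DESeq2 (0.81), which makes 1 marker called at an adjusted p under 0.10 instead of 0. Cd163 turned to -0.05 in the 7 deepest libraries, and Cx3cr1 to -0.15 with limma-voom and -0.04 with the pan-macrophage covariate. The count of markers at an unadjusted p under 0.05 fell from 3 to 1 (Lyve1) in the 7 deepest libraries and was 2 to 4 with each library left out. Genes over the whole table at an adjusted p under 0.10 and higher (8) became 13 with library size alone, 13 without a filter, 4 with at least 10 counts in every library, 42 with DESeq2, 41 with limma-voom, 21 with the pan-macrophage covariate, 5 in the 7 deepest libraries and 2 to 7 with each library left out. The 4 lower genes became 27 with DESeq2, 9 with limma-voom, 2 with the Xist and Y-linked covariate, 1 in the 7 deepest libraries and 1 to 3 with each left out. At an unadjusted p under 0.05, the 269 higher genes became 516 without a filter, 1138 with limma-voom, 980 with the pan-macrophage covariate, 404 with the Xist and Y-linked covariate and 175 to 591 with each left out, and the 317 lower genes became 647, 672 (limma-voom), 493 (DESeq2), 532 (pan-macrophage covariate) and 264 to 537. The other lists held 3 genes at an unadjusted p under 0.05, and 2 to 5 with each left out. The cause of these shifts was not tested.

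The labels do not say whether the replicate numbers pair the mice. Same-numbered libraries had correlations from -0.341 to 0.662, and these values cannot show whether a pairing exists. Blocking on that number gave a replicate block fit in which 5 genes were higher and 3 lower at an adjusted p under 0.10. In this fit 5 list genes had an unadjusted p under 0.05, and the markers kept 3 (Lyve1 log2 fold change 0.80, Folr2 0.68, Cbr2 0.47).

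Of the 108 refitted ratios to pan-macrophage counts, 91 kept direction and side of the threshold. The count under 0.05 was 0 to 1 with each library left out. F13a1 was 0.01 with a list without C1q genes and Lyz2, and Cbr2 was -0.02 in the 7 deepest libraries. With each left out the log2 differences ran from 0.19 to 0.53 (Lyve1), 0.19 to 0.37 (Folr2), -0.33 to -0.09 (Mrc1), -0.08 to 0.61 (Timd4), -0.47 to 0.20 (Cd163), -0.25 to 0.00 (Cx3cr1), -0.26 to 0.13 (F13a1), -0.16 to 0.19 (Cbr2) and -0.90 to -0.45 (Gas6). Of the 27 genes most like the markers, 8 were kept with Spearman's correlation and 8 with deviations from group means. Timd4 had the fewest counts of the markers, 5 to 22 in a library, and the share of depth in its spread was not tested.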
